A study of Mus musculus with 4 samples.

Results

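GABA-A receptor subunits were described in the medial prefrontal cortex (mPFC) of mice with and without chronic stress. The subunits were 7 genes, Gabra2, Gabra3, Gabra4, Gabra5, Gabrb1, Gabrb2 and Gabrd, which were found by symbol among the 17778 genes of the deposited mRNA table. Male C57BL/6 mice (C57BL/6J in the methods of the study) entered the study at postnatal day 21. The CUMS group (2 libraries) had 3 weeks of chronic unpredictable mild stress (CUMS), a changing schedule of mild stressors that included social isolation, and its mice were kept only if behavioral tests showed a depression-like state. The control group (2 libraries) lived without these stressors, and the study describes no transgene and no drug treatment in either group. Mice of both groups were anesthetized with isoflurane before the tissue was taken. The tissue was the mPFC of both sides, and per the methods of the study RNA was isolated from each mouse. The labels do not state whether a library came from a single mouse.

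GABA-A receptors are chloride channels that open when GABA, the main inhibitory transmitter of the brain, binds to them. They are assembled from several subunits around a central pore, most often from alpha and beta subunits with either a gamma or a delta subunit. The subunit make-up sets where a receptor sits and which drugs it answers to. Receptors with a gamma subunit gather at synapses and can be bound by benzodiazepines, whereas receptors with the delta subunit lie outside synapses, give a steady (tonic) inhibition and are sensitive to neurosteroids.

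Each gene had 1 authors' mean per group, in RPKM, a read number divided by gene length and library size, and no value for a single library. No difference below therefore has a replicate check, and the spread between mice is unknown. Precision is given as an exact Clopper-Pearson 95% interval of the log2 ratio of CUMS over control, computed from estimated fragments, so that it covers counting error only. An estimated 7385524 fragments entered each control library and 7440476 each CUMS library. This is below the read numbers that the study gives, and a larger depth would narrow the intervals.

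All 7 subunits had at least 0.5 RPKM in both groups, and the control levels ran from 3.135 RPKM (Gabrb1) to 35.41 RPKM (Gabrd). A higher mean in CUMS was found in 4 of them (Gabra3, Gabra4, Gabrb1 and Gabrd) and a lower mean in 3 (Gabra2, Gabrb2 and Gabra5, whose ratio of -0.01 becomes 0.01 relative to the median of all genes). The differences were small: 0 of 7 passed a fold of 1.5 in either direction. Among all 14257 genes that reached 0.5 RPKM in a group, 2.78% passed this fold as higher in CUMS and 4.42% as lower. Among the 8259 genes within the subunits' own range of levels (larger mean of 3.41 to 39.4 RPKM), the shares were 0.581% and 1.76%. A higher mean in CUMS, of any size, was found in 46.6% of the 14257 genes and in 45.6% of the 8259 genes. The 4 of 7 subunits with a higher mean therefore say little about the subunits. The median log2 ratio of the 7 subunits was 0.12, beside -0.015 over all 14257 genes. This median is the ratio of Gabrb1, the subunit with the fewest fragments (86 and 94), whose interval of -0.32 to 0.56 included 0. The median absolute log2 ratio was 0.15 for the subunits and 0.13 for all genes.

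The counting interval lay above 0 for 3 subunits (Gabra3, Gabra4 and Gabrd), below 0 for 2 (Gabra2 and Gabrb2) and included 0 for 2 (Gabra5 and Gabrb1). Of all 14257 genes, 12.5% had an interval above 0 and 16.8% an interval below 0. Within the subunits' range of levels these shares were 11.0% and 18.3%. In bulk tissue, fewer cells of a type and less RNA per cell cannot be told apart, so that each value below is a level in the dissected tissue.

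**Figure D1:**
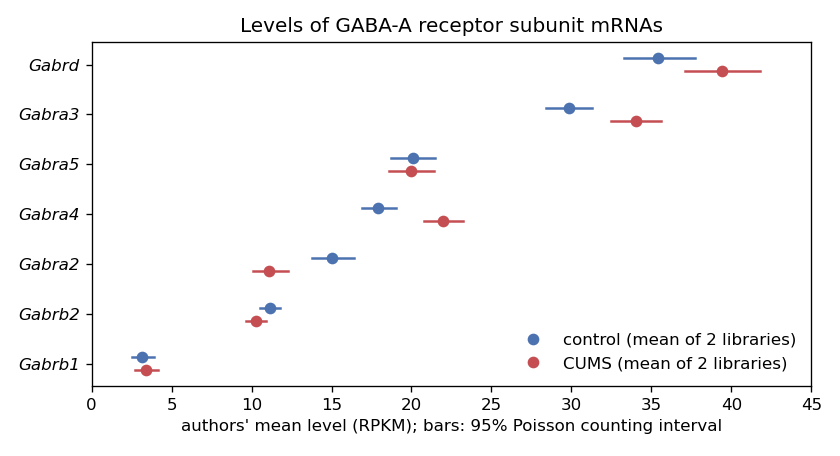
Authors' mean level of each of the 7 subunits (horizontal axis, RPKM) in control (blue) and CUMS (red), each point the mean of 2 libraries and each bar its 95% Poisson counting interval. The bars of the groups are separate for Gabra2, Gabra3 and Gabra4, with Gabra2 at 15.055 RPKM in control and 11.115 RPKM in CUMS.

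Among the alpha subunits, Gabra2 was the lowest against control. Gabra2 (gene 14395) encodes alpha2, a subunit of synaptic receptors found in the forebrain and known for a part in the anxiety-reducing action of benzodiazepines. The authors' mean of Gabra2 came to 15.055 RPKM in control (532 fragments, both libraries summed) and to 11.115 RPKM in CUMS (396 fragments). This was 26.2% lower, a log2 ratio of -0.44 (counting interval -0.63 to -0.25). Of the 8259 genes in the subunits' range of levels, 3.52% had a lower ratio than Gabra2. The difference is larger than counting error, and whether it is larger than the spread between mice cannot be said from group means.

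Gabra2 lies on the minus strand of chromosome 5 (70958392 to 71095849, GRCm38.p6, which is the mm10 build used by the authors). Its start lies in a window rich in CpG, with 25 CpG dinucleotides and a GC content of 70.0% over the 250 bases before and 50 after the start (RefSeq). The medians over all 32851 promoter windows were 7 CpG and 52.7%. The 210 bases before the Gabra2 start (minus strand, chr5:71095850-71096059) are printed to show this base composition beside those of Gabra3 and Gabrb2 below, 5′ to 3′, with a GC box (GGGCGG) in capitals 205 bases before the start.
Gabra2: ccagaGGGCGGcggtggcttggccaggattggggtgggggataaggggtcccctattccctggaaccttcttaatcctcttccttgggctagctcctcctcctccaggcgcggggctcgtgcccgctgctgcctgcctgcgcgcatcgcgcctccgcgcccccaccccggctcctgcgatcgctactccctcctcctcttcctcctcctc
The whole window held 2 GC boxes on either strand, a motif found in 35.7% of all windows.

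Gabra4 had the highest ratio of the subunits. Gabra4 (gene 14397, chromosome 5, 71569734 to 71658308, minus strand) encodes alpha4, which often joins delta in receptors outside synapses and is insensitive to classical benzodiazepines. The level of Gabra4 was 17.905 RPKM in control (1090 fragments) and 21.97 RPKM in CUMS (1348 fragments). Its CUMS mean was 22.7% higher, with a log2 ratio of 0.30 (0.18 to 0.41). A higher ratio was found in 5.09% of the genes in the same range of levels. The gene lies 474 kb from Gabra2 on the same strand, and its start window had 12 CpG, 58.7% GC and 2 GC boxes. The Gabra4 span overlaps that of Gabrb1, which runs on the other strand, by 388 bases, and 46 of the annotated exonic bases (0.756%) are shared. The use of strand in the counting was not stated, so that reads from these 46 bases cannot be assigned to either gene.

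Gabra3 (gene 14396, chromosome X, 72432676 to 72656919, minus strand) encodes alpha3, a benzodiazepine-sensitive subunit found in deep cortical layers and monoaminergic nuclei. Its mean was 29.865 RPKM in control (1644 fragments) and 34.02 RPKM in CUMS (1887 fragments), which was 13.9% higher. The log2 ratio of 0.19 (0.09 to 0.28) was larger than counting error, and 12.3% of the genes in the same range had a higher ratio. In contrast to Gabra2, both annotated Gabra3 windows held 0 CpG, at 43.0% and 39.3% GC. The 210 bases before its start in window 1 (minus strand, chrX:72656920-72657129) are given with the letters of a reverse-strand TATA box (TATAAA on the other strand) in capitals, 123 bases before the start.
Gabra3: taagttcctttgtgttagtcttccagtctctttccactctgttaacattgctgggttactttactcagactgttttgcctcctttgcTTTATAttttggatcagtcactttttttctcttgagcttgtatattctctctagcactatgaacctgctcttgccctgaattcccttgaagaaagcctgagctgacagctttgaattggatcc
TATAAA on either strand was present in 13.6% of all windows.

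Gabra5 (gene 110886, chromosome 7, 57407669 to 57591016, minus strand) encodes alpha5, which contributes to tonic inhibition in cortex and hippocampus. Its level was 20.07 RPKM in control (793 fragments) and 19.96 RPKM in CUMS (794 fragments). The log2 ratio was -0.01 (-0.15 to 0.13), so that no difference of Gabra5 was detectable at this depth. The interval still allows a log2 difference of 0.15 downward or 0.13 upward. Of its annotated exonic bases, 148 (4.98%) are shared with Gm9962. The single Gabra5 window (57510010 to 57510309) lies at a start inside this gene span and not at its outer end. It held 13 CpG at 56.7% GC and 0 of the 6 motifs searched.

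The beta subunits complete the GABA binding site together with alpha. Gabrb2 (gene 14401, chromosome 11, 42419515 to 42632591, plus strand) encodes beta2, which is found in many synaptic receptors of the adult brain. Its mean was 11.14 RPKM in control (1245 fragments) and 10.26 RPKM in CUMS (1155 fragments), which was 7.90% lower. The log2 ratio was -0.12 (-0.24 to -0.0023). The upper end of this interval lies next to 0, and 28.2% of the genes in the same range had a lower ratio. After CUMS values were scaled so that the median log2 ratio of all genes was 0, the Gabrb2 interval ran from -0.221 to 0.013 and included 0.

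Gabrb2 has 3 annotated starts in the RefSeq table, with 59.0%, 54.7% and 41.0% GC in their windows. All of them lie inside the gene span given above, not at its outer end. The 210 bases before the first start (plus strand, chr11:42420230-42420439) are shown because they hold a TATA box in capitals 30 bases before the start, the usual place of this motif.
Gabrb2: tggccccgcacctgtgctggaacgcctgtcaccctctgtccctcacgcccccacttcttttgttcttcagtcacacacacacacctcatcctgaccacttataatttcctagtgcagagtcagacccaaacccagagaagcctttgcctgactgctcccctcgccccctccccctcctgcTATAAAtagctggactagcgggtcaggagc
No value here bears on which of the 3 starts was used, since the table holds 1 level per gene.

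Gabrb1 (gene 14400, chromosome 5, 71657921 to 72149572, plus strand) encodes beta1, and it had the lowest level of the 7 subunits. Its level was 3.135 RPKM in control (86 fragments) and 3.41 RPKM in CUMS (94 fragments). The log2 ratio of 0.12 had a wide interval (-0.32 to 0.56), so that a difference of this size was not detectable at this depth. Its first window, which faces Gabra4, held 25 CpG at 66.0% GC and 2 matches of the Egr motif GCGNGGGCG. This motif was present in 5.55% of all windows, and the first Gabrb2 window held 1 match. The second Gabrb1 window held 9 CpG at 50.3% GC and no match of the motifs searched.

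Gabrd (gene 14403, chromosome 4, 155384979 to 155398098, minus strand) encodes delta, the subunit of receptors outside synapses, and had the highest level of the 7. Its mean was 35.41 RPKM in control (992 fragments) and 39.4 RPKM in CUMS (1112 fragments), which was 11.3% higher. The log2 ratio was 0.15 (0.03 to 0.28), and 15.7% of the genes in the same range had a higher ratio. Gabrd was thus higher together with Gabra4, its frequent partner. The ratio of Gabra4 over Gabrd, both per length, was 0.506 in control and 0.558 in CUMS, and its log2 change of 0.14 had an interval that included 0 (-0.03 to 0.31).

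**Figure D2:**
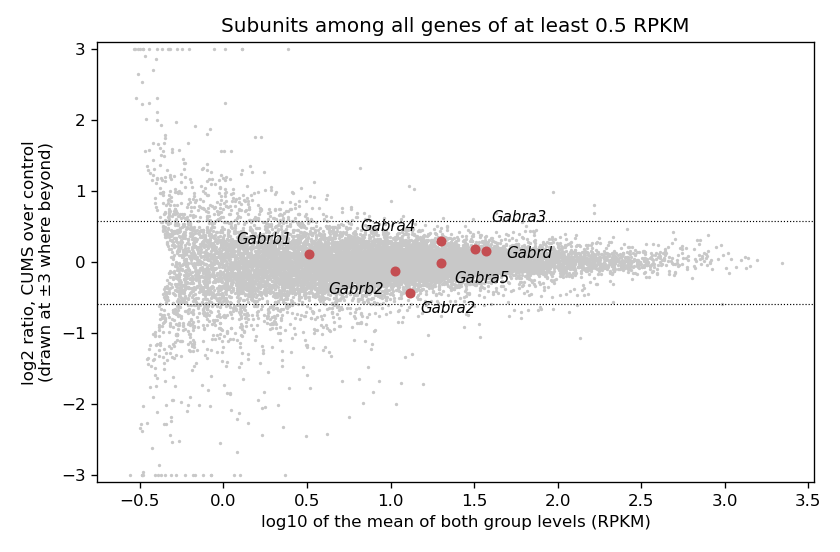
Log2 ratio of CUMS over control (vertical axis) against the log10 of the mean of both group levels (horizontal axis, RPKM) for the 14257 genes reaching 0.5 RPKM in a group (grey), with the 7 subunits in red and a fold of 1.5 as dotted lines. Ratios beyond 3 in size are drawn at the edge, and all 7 subunits lie between the dotted lines, from -0.44 (Gabra2) to 0.30 (Gabra4).

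The motifs searched in the promoter windows were the TATA box (TATAAA), the GC box (GGGCGG), the cAMP response element (TGACGTCA), its core (TGACG, contained in the whole element), the AP-1 site (TGANTCA) and the Egr site (GCGNGGGCG, which can overlap a GC box). Both strands were read. Windows were found for 6 of the 7 subunits, 10 in all, and those of Gabra2, Gabra4, Gabrb1 and Gabra5 are described above. The whole cAMP response element (1.79% of all windows) and the AP-1 site (7.81%) were in 0 of the 10 windows. The core (20.8%) was in the first Gabrb2 window only, which also held 1 GC box. Such matches describe letters in a window and say nothing of factor binding.

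Alpha subunits had ratios on both sides of 0. They ran from -0.44 (Gabra2) to 0.30 (Gabra4) on the log2 scale of the ratio, with a median of 0.09, and the 2 beta subunits had ratios of -0.12 and 0.12. The ratio of Gabra4 over Gabra2 was 1.19 in control and 1.98 in CUMS, a log2 change of 0.73 (0.51 to 0.95). Gabra3 over Gabra2 likewise went from 1.98 to 3.06, a log2 change of 0.63 (0.42 to 0.84). Both ratios between alpha subunits thus moved by more than counting error, and a ratio shows unequal difference without saying which gene differed. Gabra5 over Gabra4 was 1.12 in control and 0.909 in CUMS, so that the order of this pair turned, with a log2 change of -0.30 (-0.49 to -0.12).

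Gabrb2 over Gabrb1 was 3.55 in control and 3.01 in CUMS, and its log2 change of -0.24 had an interval from -0.68 to 0.20. Gabra4 over Gabrb1, the head-to-head pair on chromosome 5, was 5.71 in control and 6.44 in CUMS (log2 change 0.17, -0.26 to 0.61). For both pairs a change of the ratio was not detectable at this depth.

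In order of level per length, control had Gabrd first, followed by Gabra3, Gabra5, Gabra4, Gabra2, Gabrb2 and Gabrb1. CUMS had the same order except that Gabra4 stood before Gabra5. Neighbors whose 95% Poisson intervals overlapped were Gabra5 (18.7 to 21.5 RPKM) and Gabra4 (16.9 to 19.0 RPKM) in control. In CUMS they were Gabra4 (20.8 to 23.2 RPKM) and Gabra5 (18.6 to 21.4 RPKM), and also Gabra2 (10.1 to 12.3 RPKM) and Gabrb2 (9.67 to 10.9 RPKM). In control, Gabra2 (13.8 to 16.4 RPKM) stood apart from Gabrb2 (10.5 to 11.8 RPKM).

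Levels between genes rest on the gene lengths that the authors used. For Gabra3, Gabra4 and Gabra5 these lengths were close to the longest GENCODE transcript (3727, 4123 and 2674 against 3662, 4108 and 2671 bases). Gabra2 was counted over 2392 bases against a longest transcript of 5852, Gabrb1 over 1860 against 13737, Gabrd over 1896 against 2707, and Gabrb2 over 7568 against 3989. The order and the shares depend on these lengths, and the ratio of a gene between groups does not.

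The 7 subunits summed to 133 RPKM in control and 140 RPKM in CUMS, which was 5.70% higher. Within this sum, Gabra2 made up 11.4% in control and 7.93% in CUMS, a difference of -3.42 percentage points. Shares are of these 7 genes alone, and the Gabra2 difference is smaller against a sum over more subunits. Gabra4 went from 13.5% to 15.7%, Gabra3 from 22.5% to 24.3% and Gabrd from 26.7% to 28.1%. The shares of Gabra5 (15.1% and 14.2%) and Gabrb2 (8.40% and 7.32%) were lower in CUMS, and that of Gabrb1 was 2.36% and 2.43%.

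**Figure D3:**
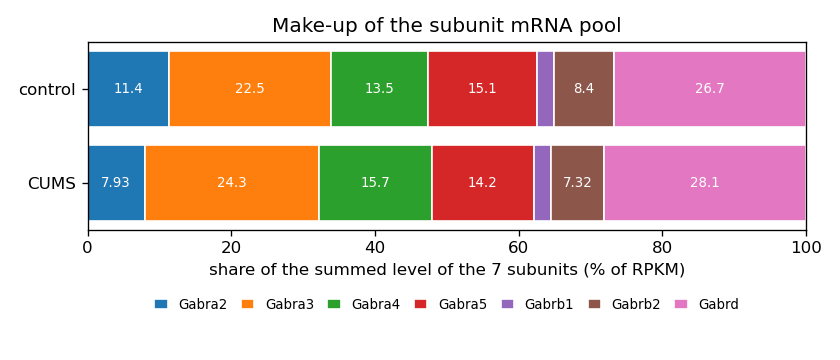
Share of each of the 7 subunits in their summed level (horizontal axis, % of RPKM) in control (upper bar) and CUMS (lower bar), with shares above 5% printed. The Gabra2 part is smaller in CUMS (7.93%) than in control (11.4%), and the Gabra4 part is larger.

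Further subunits of the family were read from the same table. Gabrg1, a gamma subunit, was 5.04 RPKM in control (355 fragments) and 4.04 RPKM in CUMS (287 fragments), a log2 ratio of -0.32 (-0.55 to -0.09). Low levels were found for the others described here. Gabre was 0.71 RPKM in control (29 fragments) and 0.07 RPKM in CUMS (3 fragments), a log2 ratio of -3.34 with an interval from -5.64 to -1.59. Gabrq was 0.75 and 0.155 RPKM (22 and 5 fragments; -2.27, -3.91 to -0.71). Both passed a fold of 1.5, on few fragments. Gabrg3 was 0.605 and 0.71 RPKM (0.23, -0.82 to 1.34). Under 0.5 RPKM in both groups were Gabrr2 (0.375 and 0.17 RPKM) and Gabrr1, which was listed at 0.01 RPKM in control, the value that stands for 0, and was 0.105 RPKM in CUMS (4 fragments).

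Set side by side along chromosomes 5 and X, the subunit genes described here did not share 1 direction. On chromosome 5, Gabrg1 and Gabra2, which are 116 kb apart, had lower means in CUMS, and Gabra4 and Gabrb1 had higher means. On chromosome X, Gabra3 was higher, whereas Gabre (158 kb away) and Gabrq (168 kb away) on either side of it were lower.

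**Figure D4:**
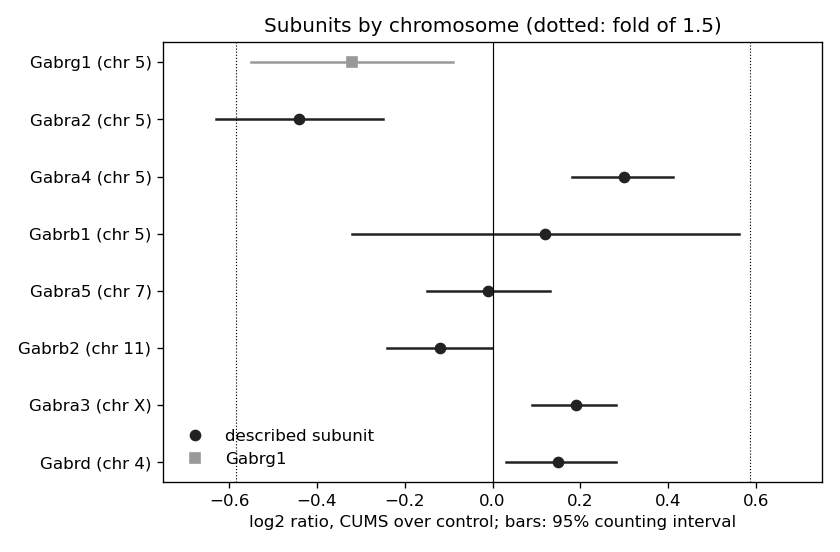
Log2 ratio of CUMS over control (horizontal axis) with 95% counting intervals for the 7 subunits (black circles) and Gabrg1 (grey square), grouped by chromosome, with a fold of 1.5 as dotted lines. On chromosome 5, Gabrg1 (-0.32) and Gabra2 (-0.44) lie left of 0, and Gabra4 (0.30) and Gabrb1 (0.12) lie right of it.

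Genes that hold, move and supply GABA-A receptors gave the following counts. Of all 14257 genes, 46.6% had a higher mean in CUMS, beside which these counts and those of the later lists are to be read. Counts near that share say little about a list. Of 10 scaffold and adhesion genes of the inhibitory postsynapse, 3 had a higher and 7 a lower mean in CUMS (median log2 ratio -0.05), from Mdga1, a suppressor of neuroligin binding (-1.10, 8.24 to 3.845 RPKM), and Iqsec3 (-0.41) up to Slitrk3 (0.07). Of 14 genes of receptor assembly and traffic, 4 were higher and 10 lower (median -0.05), from Hap1 (-0.67, 115.88 to 73.03 RPKM) and Plcl1 (-0.32) to Nsf (0.10) and Plcl2 (0.18). Of 8 genes of the chloride gradient, which sets the strength of the channel's current, 3 were higher and 5 lower (median -0.07), with Slc12a2 at -0.33, Wnk3 at -0.26, Oxsr1 at 0.09 and Car7 at 0.29. Of 7 neurosteroid and endozepine genes, 2 were higher and 5 lower (median -0.02), with Akr1c14 at -1.17, Cyp11a1 at -0.26, Srd5a1 at 0.12 and Tspo at 0.69. The intervals of Akr1c14 (18 and 8 fragments), Cyp11a1 (36 and 30) and Srd5a1 included 0. That of Tspo (31 and 50 fragments) began next to 0 (0.0042 to 1.3745). Of 6 GABA-B receptor genes, 2 were higher and 4 lower (median -0.07), with Kctd8 at -0.36, Kctd12b at -0.34, Kctd16 at 0.07 and Gabbr2 at 0.29. Of these named genes, Kctd8, Kctd12b (44 and 35 fragments) and Kctd16 had intervals that included 0.

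The genes of GABA synthesis and uptake stood lower than the receptor subunits. Of 8 such genes, 1 had a higher and 7 a lower mean (median -0.48), and 4 passed a fold of 1.5 as lower. Gad2, a GABA-synthesizing enzyme, went from 43.93 RPKM in control to 23.945 RPKM in CUMS (-0.88), and Slc32a1, the vesicular GABA transporter, was 76.715 and 44.67 RPKM (-0.78). Gad1, Gad2, Slc32a1 and Slc6a11 of this list were picked by the study as lowered in these same libraries, so that the list's direction is not independent evidence. Aldh5a1 and Slc6a13 had ratios of -0.10 and 0.14. The 7 subunits had a median of 0.12, which is the ratio of Gabrb1 with its wide interval, and 0 of them passed this fold. As a set they thus did not have the lower levels of these genes, and this difference between lists was not tested.

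**Figure D5:**
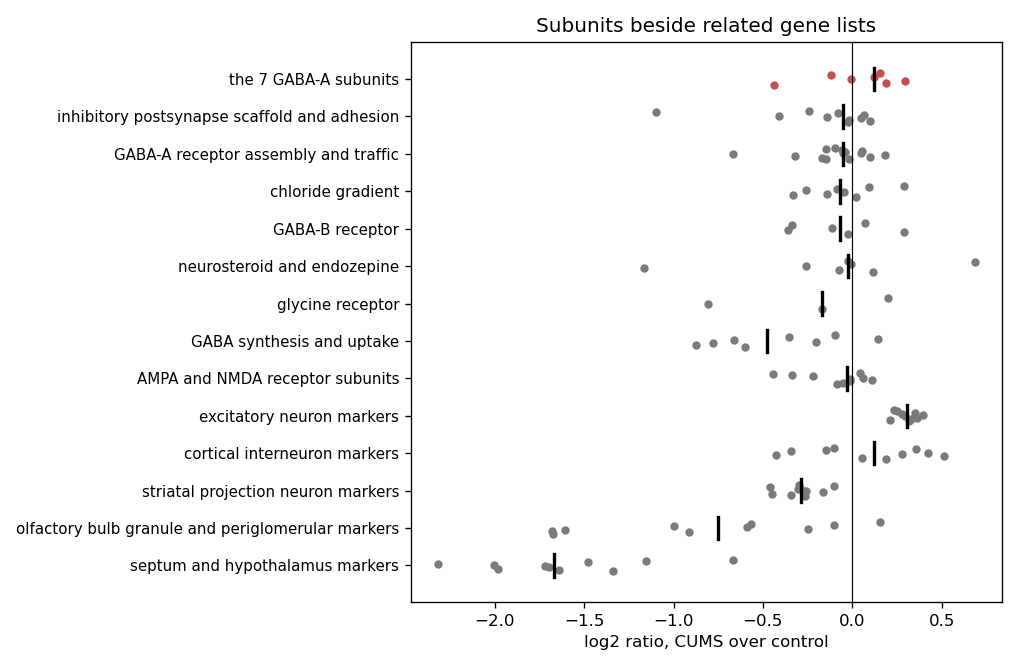
Log2 ratio of CUMS over control (horizontal axis) for the 7 subunits (red) and related gene lists (grey), each point a gene reaching 0.5 RPKM in a group and each black bar a list's median. The subunits lie around 0 (median 0.12), the genes of GABA synthesis and uptake have a median of -0.48, and the septum and hypothalamus markers one of -1.67.

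Markers of cell types and regions also differed between the groups, beside the subunits. All 10 excitatory neuron markers had higher means in CUMS (median 0.31; summed level 1671 RPKM in control and 2007 RPKM in CUMS), with Camk2a at 0.21, Fezf2 at 0.23 and Neurod2 at 0.36. Of 10 cortical interneuron markers, 6 were higher and 4 lower (median 0.12; 952 and 1139 RPKM), with Lhx6 at -0.43, Adarb2 at -0.34, Cck at 0.42 and Vip at 0.51. Cck alone, at 421.315 RPKM in control and 565.445 RPKM in CUMS, made up most of the difference in this sum. The sum therefore does not stand for the list as a whole. The interval of Adarb2 (-0.69 to 0.0012) included 0. All 10 striatal projection neuron markers were lower (median -0.29; 562 and 463 RPKM), with Penk at -0.46, Adora2a at -0.45, Ppp1r1b at -0.17 and Tac1 at -0.10. Of 10 olfactory bulb markers, 9 were lower (median -0.75; 167 and 128 RPKM), with Doc2g at -1.68, Th at -1.67, Meis2 at -0.10 and Synpr at 0.15. All 10 septum and hypothalamus markers were lower (median -1.67; 238 and 112 RPKM), with Magel2 at -2.32, Prkcd at -2.0, Ngb at -1.16 and Hap1, which the traffic list also holds, at -0.67. All of these septum and hypothalamus markers, and Th, Calb2 and Doc2g of the olfactory bulb list, are genes that the study picked as lowered in these same libraries, so that their direction was fixed by the choice and is not independent evidence. In these 5 lists, 0 markers found in the table were listed at 0 in either group. A level above 0 does not show which region or cell type the RNA came from, and this was not tested.

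The part of these regions and cell types in the values of the subunits was not tested. With 1 mean per group, no relation across samples between a subunit and a marker could be computed.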

How the data were processed

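Messenger RNA of the mPFC was sequenced by the authors in paired reads (Illumina HiSeq), in 2 control and 2 CUMS libraries. Per the methods of the study, clean reads were aligned to mm10 with TopHat (version 1.0.12) and Bowtie (version 0.11.3). The annotation and the use of strand are not given in the sources used here. The deposited RPKM values were averaged by the authors over the libraries of a group. The deposited log2 ratio and the NOISeq probability, a score by the authors for differential expression, are their own comparisons and were not used. The table also held the gene length.

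Groups were taken from the sample labels. Log2 ratios were computed from the means (Python 3.11.15, pandas 2.3.3, SciPy 1.17.1), with a listed 0.01 RPKM read as 0. Fragments were estimated from low values: for genes under 1000 bases, 1 fragment adds a fixed step to RPKM x length (67.70 in control, 67.20 in CUMS), and 86.5% of 406 control and 86.2% of 392 CUMS values were no further than 0.15 from a whole multiple. The libraries of a group were taken as equally deep. The estimate of the steps was tested on simulated data. A floor of 3 fragments over a group was set. Intervals and floors cover counting error only, since PCR duplicates cannot be recognized. No test was run: the tests of the study need a value per library.

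Named were the subunits and, of each other list, the 2 highest and 2 lowest log2 ratios among genes of at least 0.5 RPKM. Some genes that this rule names are not reported here. The subunits and lists were chosen with earlier results of these data known. No likeness of pattern was computed from 2 means. Coordinates and promoters came from RefSeq (GRCm38.p6), matched by gene identifier and symbol, and transcript lengths from GENCODE. Promoter sequence was printed only before the start and outside annotated exons. Alternatives were other pseudocounts, scalings, minimums, folds and depths.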

Additional observations from a re-analysis of the deposited data

How the results depend on the processing

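No paired analysis was possible because the values used here were 1 mean per group. For the same reason no library could be left out. The log2 ratios of the 7 subunits moved by less than their counting interval in 28 of 28 alternatives (pseudocounts of 0.1 and 1 RPKM, and both rescalings of CUMS), and the sign turned for Gabra5 alone, from -0.01 to 0.01 after rescaling to the median. Rescaling to a median log2 ratio of 0 shifted every ratio by 0.0151 and rescaling to an equal total by -0.00007. Shifts of this size were bound to move the ratios little, and the pseudocounts were small against most of these levels. The count of 28 of 28 is therefore no check of the ratios themselves. The median of the subunits, 0.121, ranged from 0.093 to 0.136. The lowest fold threshold tried was passed by 1 subunit, Gabra2 (1.35-fold lower), against 0 subunits at a fold of 1.5 and at a fold of 2. The share of all genes passing was computed at a fold of 1.5 only. The 1 of 7 subunits at the lowest threshold therefore cannot be set against all genes, and nothing is concluded from it. The number of subunits whose interval excluded 0 was 5, also at 2 times the estimated depth, and 4 after rescaling to the median. The medians of short lists depended on the minimum, since more or fewer genes entered. For glycine receptor genes the median of -0.168 became -0.489 with no minimum and 0.015 at 5 RPKM or more, and for thalamus markers -0.605 became -0.293 and -1.459. The Gabra2 share and 1 further list also moved, with values not reported here. Depth limits the lowest subunits most, since Gabrb1 rests on 86 and 94 fragments. A depth taken from the total of RPKM x length could not be computed.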

Other observations

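Other receptor families of fast transmission were read from the same table, in which 46.6% of all 14257 genes had a higher mean in CUMS. Of 10 AMPA and NMDA receptor subunits of at least 0.5 RPKM, 3 had a higher and 7 a lower mean in CUMS (median log2 ratio -0.03). Grin2d (-0.45, 6.61 to 4.85 RPKM) and Grin2c (-0.34) were at the low end, and Grin2a (0.06) and Gria4 (0.11) at the high end. Of 3 glycine receptor genes, Glra3 had a log2 ratio of -0.81 on 18 and 10 fragments, Glra2 one of -0.17 and Glrb one of 0.20 (54.565 to 62.595 RPKM), with a median of -0.17.

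Glial and vascular markers, and markers of 2 further regions, completed the lists. Of 9 oligodendrocyte markers, 8 had lower means (median -0.46; summed level 1958 RPKM in control and 1338 RPKM in CUMS), with Cldn11 and Mobp at -0.68, Cnp at -0.31 and Opalin at 0.04. Mbp, Cldn11 and Mobp of this list, and Prkcd and Calb2 of the thalamus list, were picked by the study as lowered in these same libraries. Astrocyte markers were higher in 5 and lower in 3 of 8 (median 0.03), from Gfap (-0.41) and Aldoc (-0.17) to Slc1a3 (0.11) and Aqp4 (0.12). Microglia markers were higher in 4 and lower in 2 of 6 (median 0.08), with Tmem119 and Csf1r at -0.01, Aif1 at 0.48 and P2ry12 at 0.54. The interval of Aif1 (45 and 63 fragments) included 0. Endothelial markers were higher in 2 and lower in 3 of 5 (median -0.15), with Cldn5 at -0.61, Pecam1 at -0.31, and Flt1 and Tek at 0.01. Dentate granule markers were lower in 3 of 3 (median -0.44), with C1ql2 at -1.35 and Pdzd2 and Prox1 at -0.44. The interval of Prox1 (61 and 45 fragments) included 0, and C1ql2 rested on 35 and 14 fragments. Thalamus markers were lower in 3 of 4 (median -0.60), with Prkcd at -2.0, Calb2 at -0.92, Tcf7l2 at -0.29 and Lef1 at 0.18. The intervals of Tcf7l2 and Lef1 included 0. The part of these cells and regions in the values of the subunits was not tested.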
